A study of Mus musculus with 7 samples.

Results

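The matrix metalloproteinases (MMPs), the ADAMTS proteases and the tissue inhibitors of metalloproteinases (TIMPs) were followed across 7 populations of mouse cells on Agilent 60-mer arrays. Members were all genes whose name on the array is Mmp, Adamts or Timp followed by a number, with or without a letter a or b. The rule used names and no measured value. It gave 46 genes of the 34947 gene names on the array: 23 Mmp, 19 Adamts and 4 Timp genes, read by 66 probes. A probe is called above background where the scanner software flagged its signal as well above the local background, and 30 of the 46 genes met this on at least 3 of the 7 arrays.

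MMPs and ADAMTS enzymes are zinc-dependent proteases of the extracellular matrix. Most MMPs are secreted as inactive precursors and cut collagens, gelatin, laminins and other matrix proteins, and the membrane-type MMPs stay at the cell surface and activate others. ADAMTS proteases carry thrombospondin repeats that hold them in the matrix, where some cut the large proteoglycans aggrecan and versican and others trim the ends of procollagens. TIMPs bind the active site of these enzymes. In skin, fibroblasts are a main source of these genes, and in muscle they are known for matrix turnover around regenerating fibres and satellite cells, the muscle stem cells.

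By its title, the study concerned the origin of muscle-forming precursors in the dermis and their descent from satellite cells. Populations are labelled by the mouse line they came from and by the presence of Sdc4 (syndecan-4, a proteoglycan on the surface of satellite cells), and each was measured on 1 array. The Cspg4+ population came from the line B6,FVB-Tg(Cspg4-cre)1Akik/J, in which a Cspg4-cre transgene drives Cre in cells that express the NG2 proteoglycan, and has no Sdc4 label. The 3 Sdc4+ populations were Myf5SOR+ cells, of the line B6.129S4-Myf5tm3(cre)Sor/J with Cre knocked into the myogenic gene Myf5, then Cspg4- cells of the Cspg4-cre line and cells of outbred Crl:CD1(ICR) mice. The 3 Sdc4- populations were B195AP+ cells of a line called B195AP-Cre, with a driver that is not given in the labels, and again Cspg4- and CD1 cells. Each population was drawn from 8 to 10 animals and gave 10 to 200 ng of RNA for labelling, and the labels give no age.

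Between 45.9% and 50.8% of the spots were well above background on 6 arrays, and 57.2% on the Cspg4+ array. The number of arrays limits the precision, and since the arrays of a group differ in mouse line, its SD includes the line. The Sdc4+ arrays lay in one row of the slide and all others in the second row, so a difference between rows and one between Sdc4+ and other cells cannot be told apart. A streaked region of low signal on the B195AP+ array holds the probes of 9 of the 30 genes: Adamts4, Adamts7, Adamts10, Adamts12, Mmp7, Mmp9 (3 of its 10 spots), Mmp11, Mmp17 and Timp4. On a log2 scale where 0 is the array's 75th percentile, Sdc4 read 5.40 in Cspg4+ cells, 3.79, 6.28 and 6.35 in Sdc4+ cells and 1.88, 5.10 and 5.27 in Sdc4- cells, the 1.88 from a spot in the streaked region. These groups overlapped, and the difference of 1.39 (SE 1.1) had an adjusted p of 0.728 in limma. Within lines, Sdc4 was 1.07 higher in the Sdc4+ fraction of CD1 cells and 1.18 higher in that of Cspg4- cells, from single arrays. Cspg4 read 1.14 in Cspg4+ cells and -0.58 to 1.90 in the others, so its level did not set the Cspg4+ array apart. Of 8 dermal fibroblast markers 7 or 8 were above background on every array. Of 8 satellite cell genes, Pax7, Pax3, Myf5 and Calcr were at background on all 7 arrays and Myod1 on all but CD1 Sdc4-, while Cdh15, Itga7 and Vcam1, the last 2 of which other cell types also express, were above background on all 7. Of 10 macrophage and myeloid genes, Ptprc, Lyz2, Mrc1 and C1qa were at background on all 7. Csf1r, Cd68, Cd14 and Itgam were above background on all 7.

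Of the 23 Mmp genes, 10 are neighbours on chromosome 9, with no other protein-coding gene between them in the reference annotation, and their probes span 415 kb in mm9 (chr9:7282762-7697700). The stretches from position -100 to position -21, relative to their transcription starts, are shown in chromosome order. They are shown because 5 of these genes, described further on, were at least 2-fold higher in both CD1 populations than in Cspg4- cells. Sequences and positions are from RefSeq on GRCm38.p6. Capitals mark the letters TGANTCA, the recognition motif of AP-1 (Fos and Jun dimers), which reads the same on both strands:
Mmp13 (chr9:7272414-7272493, plus strand): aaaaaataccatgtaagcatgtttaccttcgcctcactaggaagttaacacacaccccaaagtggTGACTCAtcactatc
Mmp12 (chr9:7347274-7347353, plus strand): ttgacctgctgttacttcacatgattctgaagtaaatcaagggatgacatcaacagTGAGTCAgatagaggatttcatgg
Mmp1b (chr9:7388047-7388126, minus strand): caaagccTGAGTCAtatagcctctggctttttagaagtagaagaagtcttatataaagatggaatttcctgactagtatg
Mmp3 (chr9:7445722-7445801, plus strand): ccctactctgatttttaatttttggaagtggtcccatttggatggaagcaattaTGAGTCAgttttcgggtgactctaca
Mmp1a (chr9:7464041-7464120, plus strand): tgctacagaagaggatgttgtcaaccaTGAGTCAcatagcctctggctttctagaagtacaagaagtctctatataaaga
Mmp10 (chr9:7502242-7502321, plus strand): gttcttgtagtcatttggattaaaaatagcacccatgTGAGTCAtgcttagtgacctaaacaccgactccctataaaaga
Mmp8 (chr9:7558329-7558408, plus strand): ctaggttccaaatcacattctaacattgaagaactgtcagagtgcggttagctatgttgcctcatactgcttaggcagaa
Mmp27 (chr9:7571296-7571375, plus strand): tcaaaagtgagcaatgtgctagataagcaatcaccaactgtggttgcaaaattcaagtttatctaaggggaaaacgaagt
Mmp20 (chr9:7628131-7628210, plus strand): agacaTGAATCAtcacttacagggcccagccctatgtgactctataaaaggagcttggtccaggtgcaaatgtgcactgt
Mmp7 (chr9:7691990-7692069, plus strand): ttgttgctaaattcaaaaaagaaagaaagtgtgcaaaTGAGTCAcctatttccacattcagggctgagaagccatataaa
The motif stood in this stretch for 8 of the 10 genes, between position -95 in Mmp20 and position -35 in Mmp13 (first base of the motif, counted back from the start). Mmp8 and Mmp27 had no match in the whole window from 250 bases before to 50 bases after the start. None of the other 22 member genes with a promoter window had one either. Of all 27025 mouse genes in the table, 8.97% had the motif in at least 1 window. Mmp7 and Mmp12 have 2 windows each, of which 1 holds the motif. The stretches shown for Mmp1a and Mmp1b, paired relatives of the human collagenase gene MMP1, share a run of 15 identical bases. The ETS motif AGGAAG, searched on both strands, was in at least 1 window of 15 of the 32 genes, against 38.4% of all genes. A match is a description of letters and shows no binding. The 14 members with no window were Adamts4, Adamts5, Adamts6, Adamts7, Adamts8, Adamts10, Adamts15, Adamts16, Adamts19, Mmp2, Mmp9, Mmp16, Mmp17 and Mmp19.

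**Figure D1:**
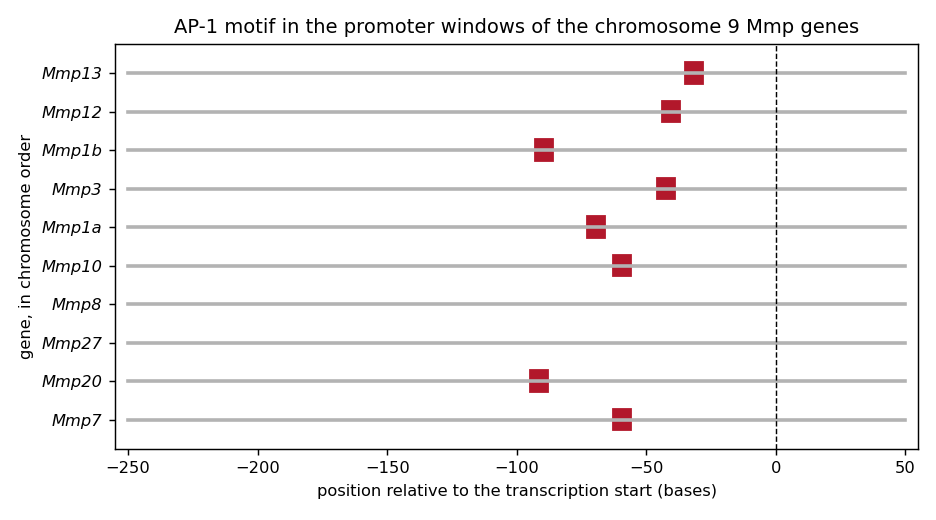
Position of the AP-1 motif (red boxes, drawn to scale) in the promoter windows of the 10 chromosome 9 Mmp genes, in bases from the transcription start, with genes in chromosome order. 8 genes hold 1 motif each between -95 and -35, and the lines of Mmp8 and Mmp27 are empty.

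Levels are log2 of the processed intensity after subtraction of the array's 75th percentile, so a level of 0 is that percentile and a difference of 1 is 2-fold. Probes differ in how well they bind, and no level was set against that of another gene. Within the Sdc4+ and Sdc4- groups the values are in a fixed order of lines: Myf5SOR+, Cspg4- and CD1 for Sdc4+, and B195AP+, Cspg4- and CD1 for Sdc4-. Over the 7 arrays the 30 genes had a median range of 1.93 log2 units, against 0.951 over all 19760 genes tested. In 15 of the 30 (50.0%) the highest and lowest array differed by over 4-fold, against 15.8% of all genes. The 15 include Adamts10, Adamts12 and Timp4, whose lowest value was a streaked B195AP+ spot. On the other arrays these read -1.19 to -0.38, -3.50 to -1.50 and -4.35 to -2.70, each within 4-fold. They also include Adamts4, with a range of 5.64 by the probe used and 1.45 by its other probe. In these bulk samples fewer cells of a type and less RNA per cell cannot be told apart.

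**Figure D2:**
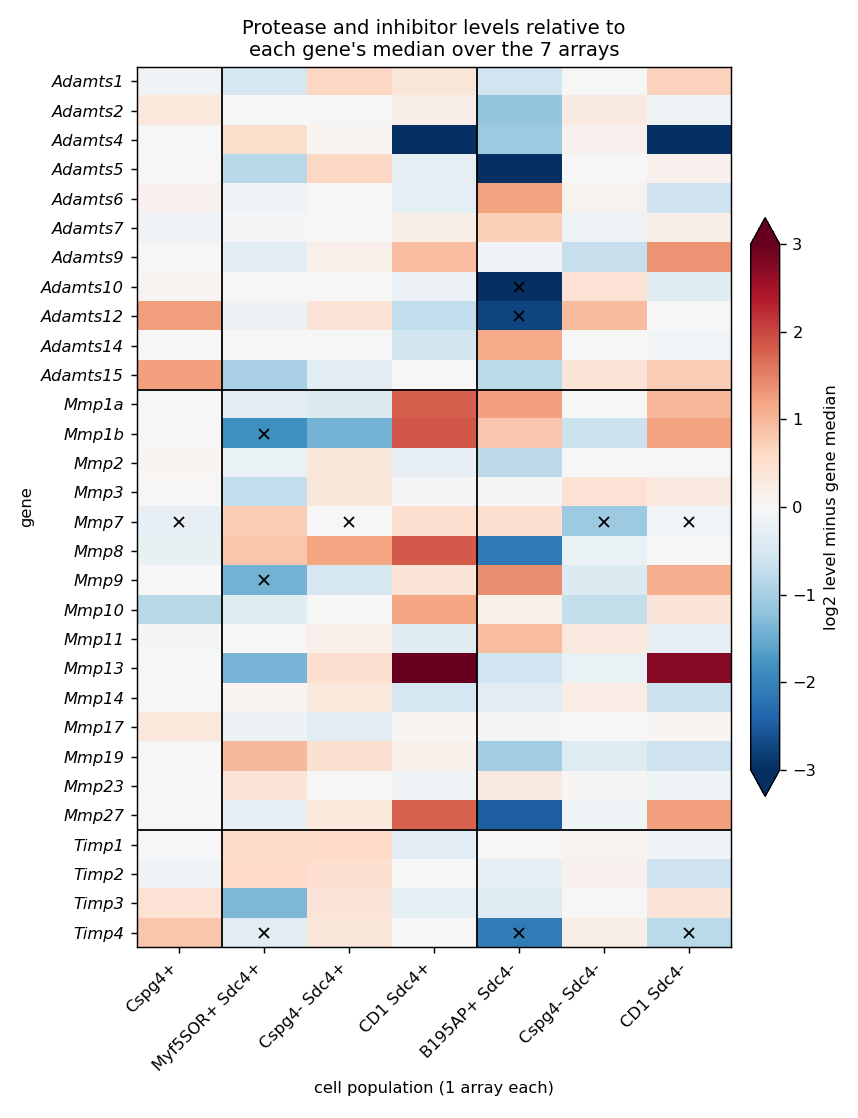
Level of each of the 30 genes above background on at least 3 arrays, as its log2 difference from the gene's own median over the 7 arrays (colour, cut at 3 in both directions), with 1 column per population and crosses where the probe was at background. The dark cells are Mmp13, high in both CD1 populations, Adamts4, low in both, and Adamts5, Adamts10, Adamts12 and Mmp27, low on the B195AP+ array.

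Among the inhibitors, Timp1, a broad MMP inhibitor, read 8.49 in Cspg4+ cells, 9.05, 9.08 and 8.15 in Sdc4+ cells and 8.48, 8.57 and 8.36 in Sdc4- cells. Its spot was saturated on 6 of the 7 arrays, B195AP+ being the exception, so these values are lower limits there and no fold is given. Timp2, which also takes part in the activation of pro-MMP2 by Mmp14, read 8.05 in Cspg4+ cells, 8.76, 8.68 and 8.17 in Sdc4+ cells and 7.91, 8.28 and 7.54 in Sdc4- cells. The Sdc4+ values of Timp2 lay above the Sdc4- values apart from a crossing of CD1 Sdc4+ (8.17) and Cspg4- Sdc4- cells (8.28). Timp3, the matrix-bound inhibitor that also blocks ADAMTS proteases, read 4.19 in Cspg4+ cells, 2.42, 4.14 and 3.46 in Sdc4+ cells and 3.38, 3.76 and 4.15 in Sdc4- cells. It was lowest in Myf5SOR+ cells and within 1 log2 unit in the others. Timp4 was dimmer, at -2.70 in Cspg4+ cells, -3.87, -3.21 and -3.54 in Sdc4+ cells and -5.63, -3.34 and -4.35 in Sdc4- cells, and was above background in the Cspg4+, Cspg4- Sdc4+, CD1 Sdc4+ and Cspg4- Sdc4- cells. The B195AP+ value of Timp4 comes from the streaked region.

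The gelatinases are given with their membrane activator. Mmp2, gelatinase A, read 6.03 in Cspg4+ cells, 5.77, 6.33 and 5.74 in Sdc4+ cells and 5.19, 5.98 and 5.99 in Sdc4- cells. Mmp14 (MT1-MMP), which activates pro-MMP2 at the cell surface, read 4.02 in Cspg4+ cells, 4.08, 4.34 and 3.49 in Sdc4+ cells and 3.68, 4.24 and 3.36 in Sdc4- cells. Their ranges over the 7 arrays were 1.14 for Mmp2 and 0.98 for Mmp14, and the 2 CD1 arrays were the lowest for Mmp14. Mmp9, gelatinase B, read -2.28 in Cspg4+ cells, -3.71, -2.79 and -1.86 in Sdc4+ cells and -0.89, -2.69 and -1.19 in Sdc4- cells. It was at background in Myf5SOR+ cells and highest in B195AP+ cells, where 3 of its 10 spots lie in the streaked region and the others gave -0.56. The membrane-type enzyme Mmp17 read -0.70 in Cspg4+ cells, -1.17, -1.31 and -0.95 in Sdc4+ cells and -1.03, -1.0 and -0.95 in Sdc4- cells, a range of 0.61.

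The stromelysins and collagenases of chromosome 9 had ranges, as read, between 1.16 for Mmp3 and 5.98 for Mmp13. Mmp3, stromelysin-1, read 8.31 in Cspg4+ cells, 7.58, 8.68 and 8.25 in Sdc4+ cells and 8.26, 8.74 and 8.59 in Sdc4- cells. It was saturated on both CD1 arrays and lowest in Myf5SOR+ cells. Mmp10, stromelysin-2, read 0.44 in Cspg4+ cells, 0.93, 1.28 and 2.47 in Sdc4+ cells and 1.43, 0.58 and 1.66 in Sdc4- cells, with both CD1 populations above all others. Mmp13, the main interstitial collagenase of rodents, read -1.37 in Cspg4+ cells, -2.76, -0.88 and 3.22 in Sdc4+ cells and -1.98, -1.57 and 1.36 in Sdc4- cells. Its range of 5.98 was the widest of the 30 genes, with CD1 Sdc4+ cells at the top, CD1 Sdc4- cells second and Myf5SOR+ cells at the bottom. Mmp1a read -0.82 in Cspg4+ cells, -1.17, -1.24 and 0.97 in Sdc4+ cells and 0.41, -0.83 and 0.18 in Sdc4- cells. Mmp1b read -1.76 in Cspg4+ cells, -3.59, -3.17 and 0.10 in Sdc4+ cells and -0.94, -2.40 and -0.56 in Sdc4- cells, and was at background in Myf5SOR+ cells. The 60-mer probes of Mmp1a and Mmp1b matched at 21 of 60 bases when laid side by side. Both genes were highest in CD1 Sdc4+ cells and low in the Myf5SOR+ and Cspg4- Sdc4+ cells. Mmp8, the collagenase first known from neutrophils, read -0.82 in Cspg4+ cells, 0.22, 0.58 and 1.23 in Sdc4+ cells and -2.73, -0.79 and -0.60 in Sdc4- cells, with no overlap between the Sdc4+ and Sdc4- arrays. Mmp27 read 0.09 in Cspg4+ cells, -0.17, 0.40 and 1.87 in Sdc4+ cells and -2.38, -0.04 and 1.32 in Sdc4- cells, low in B195AP+ cells and highest in the 2 CD1 populations. Mmp7, matrilysin, read -4.24 in Cspg4+ cells, -3.26, -4.0 and -3.49 in Sdc4+ cells and -3.50, -5.10 and -4.08 in Sdc4- cells and was above background in only the Myf5SOR+, CD1 Sdc4+ and B195AP+ cells. The B195AP+ value of Mmp7 comes from the streaked region.

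The remaining Mmp genes lie on other chromosomes. Mmp19, a secreted MMP that cuts basement membrane proteins, read 4.47 in Cspg4+ cells, 5.45, 4.92 and 4.62 in Sdc4+ cells and 3.42, 4.09 and 3.84 in Sdc4- cells. All 3 Sdc4+ values were above all 3 Sdc4- values. Mmp11, stromelysin-3, read 1.71 in Cspg4+ cells, 1.77, 1.92 and 1.40 in Sdc4+ cells and 2.70, 2.06 and 1.52 in Sdc4- cells, highest in B195AP+ cells; a second Mmp11 probe outside the streaked region also read highest there, at 1.1 against 0.30 to 0.88 in the others. Mmp23, a membrane-anchored MMP, read 2.61 in Cspg4+ cells, 2.99, 2.61 and 2.51 in Sdc4+ cells and 2.88, 2.65 and 2.46 in Sdc4- cells, the narrowest range of the 30 genes at 0.53.

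Among the ADAMTS genes, the procollagen N-proteinase gene Adamts2 read 7.86 in Cspg4+ cells, 7.53, 7.54 and 7.74 in Sdc4+ cells and 6.38, 7.81 and 7.40 in Sdc4- cells, with B195AP+ cells the lowest. Adamts14, a relative that trims the same procollagen ends, read 3.90 in Cspg4+ cells, 3.91, 3.92 and 3.35 in Sdc4+ cells and 5.0, 3.89 and 3.81 in Sdc4- cells, with B195AP+ cells the highest. A dimmer Adamts14 probe was above background in 4 populations, at -2.27 in Cspg4+, -3.36 in CD1 Sdc4+, -2.46 in B195AP+ and -3.21 in Cspg4- Sdc4- cells. The second probe of Adamts2 had the same order of B195AP+ last, at -0.05 against 0.89 to 2.32. Adamts1, a proteoglycan-cutting enzyme, read 5.39 in Cspg4+ cells, 5.01, 6.13 and 5.88 in Sdc4+ cells and 4.92, 5.51 and 6.19 in Sdc4- cells. Adamts5, the main aggrecanase of mouse cartilage, read 0.54 in Cspg4+ cells, -0.30, 1.16 and 0.28 in Sdc4+ cells and -2.70, 0.55 and 0.67 in Sdc4- cells. B195AP+ cells were over 2 log2 units below all others for Adamts5, and this probe lies outside the streaked region. The second Adamts5 probe was at background in B195AP+ cells alone (-4.39, a streaked spot) and read -2.09 to 0.30 in the others. Adamts9, which cuts versican, read -2.09 in Cspg4+ cells, -2.44, -1.93 and -1.16 in Sdc4+ cells and -2.20, -2.79 and -0.75 in Sdc4- cells, with both CD1 populations on top. A dimmer probe of Adamts9 was above background in the 2 CD1 populations alone, at -2.89 in Sdc4+ and -2.71 in Sdc4- cells.

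Adamts15, a versican-cutting enzyme, read 1.78 in Cspg4+ cells, -0.41, 0.21 and 0.56 in Sdc4+ cells and -0.25, 0.95 and 1.31 in Sdc4- cells, highest in Cspg4+ cells. Adamts12, known for cutting cartilage oligomeric matrix protein, read -1.50 in Cspg4+ cells, -2.94, -2.34 and -3.50 in Sdc4+ cells and -5.51, -1.82 and -2.76 in Sdc4- cells. Adamts7, which cuts the same protein, read 0.12 in Cspg4+ cells, 0.18, 0.24 and 0.42 in Sdc4+ cells and 0.95, 0.08 and 0.41 in Sdc4- cells. The B195AP+ values of Adamts12 and Adamts7 are from the streaked region; a second Adamts12 probe outside it read -3.48 in B195AP+ cells, inside the range of the other 6 arrays (-4.53 to -2.81), and was at background on all 3 Sdc4+ arrays. Adamts10, which binds fibrillin microfibrils, read -0.74 in Cspg4+ cells, -0.82, -0.82 and -0.99 in Sdc4+ cells and -4.32, -0.38 and -1.19 in Sdc4- cells, where the -4.32 is again a streaked spot. Its second probe read -3.14 in B195AP+ cells, within the -4.32 to -2.94 of the others. Adamts6 read -2.25 in Cspg4+ cells, -2.50, -2.37 and -2.66 in Sdc4+ cells and -1.16, -2.27 and -2.99 in Sdc4- cells, highest in B195AP+ cells.

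Adamts4, the aggrecanase that is induced by inflammatory cytokines, gave 2 readings that parted. The probe at chr1:173190709-173190768 (mm9), the brighter and so the one that stood for the gene, read 4.79 in Cspg4+ cells, 5.31, 4.86 and -0.33 in Sdc4+ cells and 3.69, 4.93 and 0.66 in Sdc4- cells. The CD1 values of this probe were over 3 log2 units below all others. The probe 757 bases upstream, at chr1:173189952-173190011, read 2.75 in Cspg4+ cells, 2.83, 2.65 and 2.97 in Sdc4+ cells and 2.37, 2.99 and 3.82 in Sdc4- cells, and its CD1 values were the highest of their group. The first 30 bases of the probes are shown because the CD1 result depends on which is read:
Adamts4 upstream probe: cgcatctttgagcattagttttctcatgtg
Adamts4 downstream probe: aatgagaggaacaggatgtggtctggtatt
Which transcript ends or alleles the probes reach was not tested.

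The comparison of Sdc4+ with Sdc4- cells asked whether cells with the satellite cell surface marker differ from those without it. No gene of the array passed an adjusted p of 0.05 in limma, so 0 of the 30 members did, against 0% of 19760 genes. At an unadjusted p under 0.05 there were 2 members, Mmp19 and Mmp8, or 6.67%, against 9.18% of all genes. The same 2 genes had all 3 Sdc4+ arrays above all 3 Sdc4- arrays, again 6.67%, against 7.2% of all genes. None had all 3 below, against 9.26% of all genes. These shares were near or under those of the whole array. Timp2 also had no overlap with normexp background correction, quantile normalization or the deposited values. Mmp7 had none with the streaked region left out, where its difference was 1.01 (unadjusted p 0.0431 and adjusted p 0.540 in limma). The median difference was 0.20 log2 units over the 30 members and -0.03 over all genes.

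Mmp19 averaged 4.99 ± 0.42 in Sdc4+ cells and 3.78 ± 0.34 in Sdc4- cells (SD, n = 3 each). The log2 difference of 1.21 (SE 0.29), or 2.32-fold, had an unadjusted p of 0.00471 and an adjusted p of 0.446 in limma. Within lines it was 0.78 in CD1 and 0.83 in Cspg4- cells. Mmp8 averaged 0.68 ± 0.51 in Sdc4+ cells and -1.37 ± 1.17 in Sdc4- cells (SD, n = 3 each), a difference of 2.05 (SE 0.60), or 4.14-fold, with an adjusted p of 0.469 in limma. The B195AP+ array (-2.73) was the lowest Mmp8 value by almost 2 log2 units; without it the difference was 1.37. Mmp8 was 1.83 higher in Sdc4+ cells of CD1 and 1.37 higher in Sdc4+ cells of the Cspg4- population. It was the sole member at least 2-fold higher in Sdc4+ cells of both lines (3.33%, against 0.531% of all genes), and none was as much lower in both (against 0.562%).

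The probes behind these 2 genes begin with the following 30 bases (mm9, chr10:128236221-128236250 for Mmp19 and chr9:7568238-7568267 for Mmp8, both on the plus strand), shown so that the transcripts measured can be found:
Mmp19 probe: gtgttcctagaaggtgtccacttaattctg
Mmp8 probe: tttattctgaggagatttgggaagaatcag

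**Figure D3:**
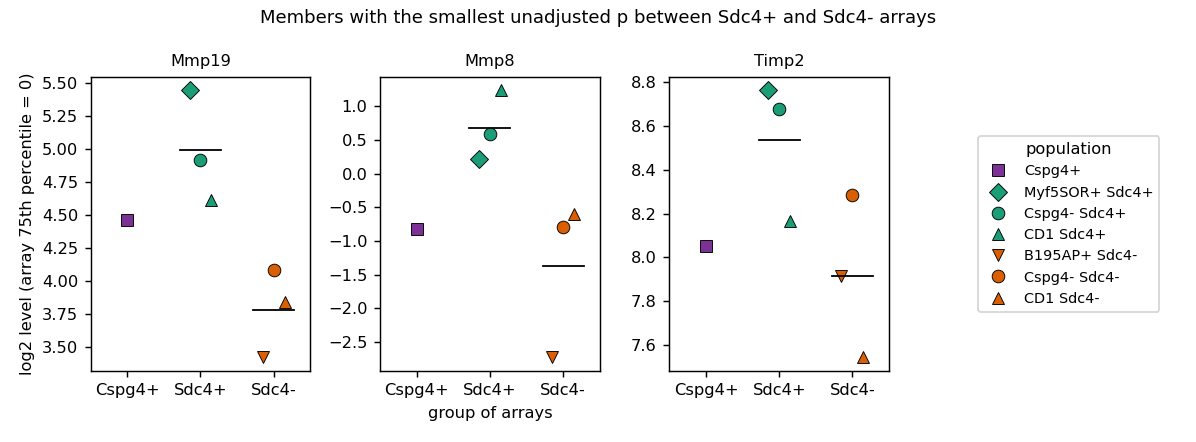
Log2 level of Mmp19, Mmp8 and Timp2 on each array, grouped as Cspg4+, Sdc4+ and Sdc4-, with a symbol per population and a line at the mean of the 3 arrays. Mmp19 and Mmp8 do not overlap between Sdc4+ and Sdc4- arrays, the Timp2 groups cross at CD1 Sdc4+, and Cspg4+ lies between the group means for all 3 genes.

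Mmp8 is also called neutrophil collagenase. Of 7 neutrophil markers 4 or 5 were above background on every array, and their summed linear level was 13.1, 13.7 and 44.5 in Sdc4+ cells and 10.6, 12.7 and 41.5 in Sdc4- cells, with Ltf at background throughout. The macrophage and myeloid list had 4 or 5 of 10 markers above background on every array, and its summed level, most of it from Itgam, was 40.7 to 59.9 in Sdc4+ cells and 40.2 to 61 in Sdc4- cells. Within that list Fcgr3 was above background on all 3 Sdc4+ arrays (-0.25, 0.82 and -0.53) and on no Sdc4- array (-3.71, -3.78 and -4.08). Csf1r read 2.44, 2.61 and 2.94 in Sdc4+ cells and 1.76, 1.87 and 2.21 in Sdc4- cells, without overlap. The groups overlapped for Cd68, Itgam and Cd14. Cd14 read -1.26, -0.81 and 0.94 in Sdc4+ cells and -0.09, -0.43 and 1.20 in Sdc4- cells. Adgre1 was above background in B195AP+ cells alone, at -2.63. The list of 8 sarcomere genes moved with the label, at 0.652, 0.925 and 2.18 in Sdc4+ cells and 6.54, 15.4 and 58.3 in Sdc4- cells. The part of these cells in the results was not tested.

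Timp2 came next, at 8.54 ± 0.32 in Sdc4+ cells and 7.91 ± 0.37 in Sdc4- cells (SD, n = 3 each), with a difference of 0.62 (SE 0.27) and an adjusted p of 0.563 in limma. Its second probe differed the same way, by 0.31. Mmp9 had the largest difference in the other direction, at -2.79 ± 0.92 in Sdc4+ cells and -1.59 ± 0.97 in Sdc4- cells (SD, n = 3 each; adjusted p 0.611 in limma), and its groups overlapped. In total 19 members had a higher mean in Sdc4+ cells and 11 a lower one, against 9258 and 10502 of all 19760 genes. The 19 include Timp1, whose spot was saturated on all 3 Sdc4+ arrays. Adamts10 (1.08) and Adamts12 (0.43) were among the 19, and with the streaked region left out their differences were -0.10 and -0.64. Adamts7 (-0.20) was among the 11, and without that region its difference was 0.03. Timp4 kept its sign, at 0.31 against 0.90. For Adamts12 the second probe also gave a negative value (-0.78), and for Adamts4 the upstream probe turned the difference to -0.24, against 0.19.

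**Figure D4:**
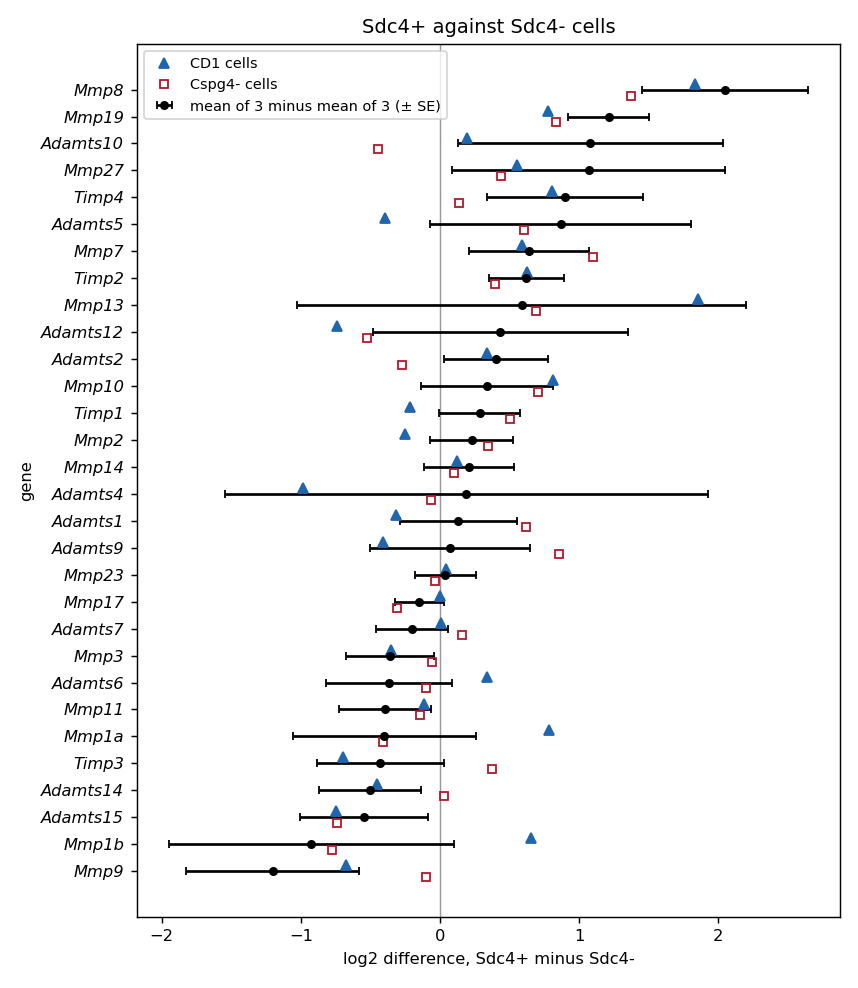
Log2 difference of Sdc4+ minus Sdc4- cells for the 30 genes, ordered by size: black points and bars are the 3-array difference with its SE from limma, blue triangles the difference within CD1 and open red squares within Cspg4- cells (1 array on each side). Mmp8 and Mmp19 stand at the top with all 3 marks to the right of 0, and Mmp9 stands at the bottom with all 3 to the left.

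CD1 and Cspg4- cells were each measured in both Sdc4 fractions, with 1 array per population and so no test. They differ in mouse line, and the CD1 labels name no Cspg4 fraction, so line and Cspg4 fraction cannot be told apart. The chromosome 9 genes were higher in CD1 cells in most cases. Of the 30 members, 5 were at least 2-fold higher in CD1 than in Cspg4- cells in both fractions, or 16.7%, against 1.74% of all genes. All 5 are chromosome 9 genes: Mmp13, Mmp1b, Mmp1a, Mmp10 and Mmp27. With normexp background correction 2 of the 5 remained past 2-fold in both, Mmp13 and Mmp27, and the values the authors deposited as log2 kept 3 (Mmp1b, Mmp13 and Mmp27). Quantile normalization kept the same 5, and median scaling gave 6, with Mmp9 of chromosome 2 added.

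Mmp13 was 3.22 in CD1 Sdc4+ and -0.88 in Cspg4- Sdc4+ cells, 17.1-fold higher, and 1.36 in CD1 Sdc4- and -1.57 in Cspg4- Sdc4- cells, 7.62-fold higher. For Mmp1b the folds were 9.68 in the Sdc4+ and 3.58 in the Sdc4- fraction. For Mmp1a they were 4.61 and 2.02, with the second value at the threshold. Mmp10 was 2.28-fold higher in CD1 Sdc4+ and 2.12-fold higher in CD1 Sdc4- cells, and Mmp27 2.77-fold and 2.56-fold. In Mmp13, Mmp1b and Mmp1a the CD1 excess was thus larger in the Sdc4+ fraction, and this difference was not tested.

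The other genes of the chromosome 9 group differed less. Mmp7 was 0.51 higher in CD1 Sdc4+ cells and 1.02 higher in CD1 Sdc4- cells, with 3 of these 4 arrays at background. Mmp8 was 0.65 and 0.19 higher. Mmp3, between Mmp1b and Mmp1a on the chromosome, was saturated on both CD1 arrays and on neither Cspg4- array, so its CD1 values of 8.25 and 8.59 are lower limits and no difference is given. Mmp12 and Mmp20 were at background on all arrays. The median CD1 minus Cspg4- difference over the 8 measured genes, with saturated spots at the value read, was 1.33 in Sdc4+ and 1.05 in Sdc4- cells, against -0.06 and -0.02 over all genes. It was -0.30 and -0.19 over the 7 other Mmp genes and -0.25 and -0.08 over the 11 Adamts genes. Over the 4 Timp genes it was -0.60 and -0.48. These Timp medians include Timp1, whose spot was saturated on both CD1 and both Cspg4- arrays. Its difference cannot be read there, so the medians do not show whether the Timp genes as a set were lower in CD1 cells.

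The AP-1 motif shown above is in the windows of 4 of the 5 genes past 2-fold in both CD1 populations (Mmp13, Mmp1b, Mmp1a and Mmp10). It is not in that of Mmp27. The motif is also in those of Mmp7, which did not pass the 2-fold rule, and of Mmp3, whose CD1 values are lower limits. Mmp12 and Mmp20, at background on all arrays, hold it too, so 8 of the 10 chromosome 9 genes have it. The summed level of the neutrophil list was 44.5 and 41.5 in CD1 cells and 13.7 and 12.7 in Cspg4- cells, and 2 genes carried it. S100a8 read 5.19 and 5.10 in CD1 cells and 3.11 and 3.03 in Cspg4- cells, and Camp 2.48 and 2.06 in CD1 cells and 0.52 and -0.39 in Cspg4- cells. Ly6g (0.49 and 0.59 in CD1 cells, 1.09 and 1.02 in Cspg4- cells) and Elane (0.13 and 0.53 in CD1 cells, 0.63 and 0.79 in Cspg4- cells) read lower in CD1 cells. The members of the macrophage and myeloid list also differed in direction. Itgam read 4.60 and 4.83 in CD1 cells and 5.50 and 5.45 in Cspg4- cells, Csf1r 2.94 and 2.21 in CD1 cells and 2.61 and 1.87 in Cspg4- cells, and Cd14 0.94 and 1.20 in CD1 cells and -0.81 and -0.43 in Cspg4- cells. The part of these cells in the CD1 values was not tested.

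In the other direction, Adamts4 was the sole member at least 2-fold lower in CD1 cells in both fractions (3.33%, against 1.78% of all genes). The downstream probe read -0.33 in CD1 Sdc4+ and 4.86 in Cspg4- Sdc4+ cells, 36.5-fold lower, and 0.66 in CD1 Sdc4- and 4.93 in Cspg4- Sdc4- cells, 19.3-fold lower. The upstream probe was 0.32 and 0.82 higher in CD1 cells, so the 2 probes of Adamts4 have opposite signs in both fractions.

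**Figure D5:**
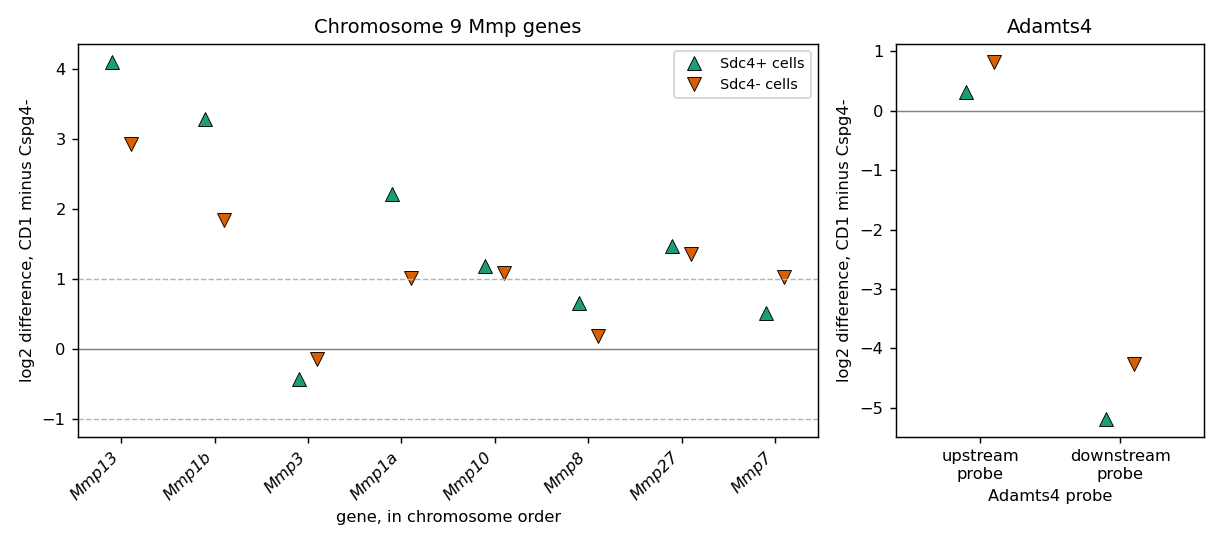
Log2 difference of CD1 minus Cspg4- cells in the Sdc4+ fraction (triangles up) and the Sdc4- fraction (triangles down), left for the 8 measured chromosome 9 Mmp genes in chromosome order with dashed lines at 2-fold, right for the 2 probes of Adamts4. Mmp13 and Mmp1b lie highest, Mmp3 is drawn from CD1 values that are lower limits, and the downstream Adamts4 probe lies below -4 while the upstream one lies above 0.

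Cspg4+ cells were compared with the Sdc4- and Sdc4+ groups to place cells traced by Cspg4-cre among the others. With 1 array, the Cspg4+ group took its error from the spread of the other groups. In limma 0 of 30 members passed an adjusted p of 0.05 against Sdc4- cells and 0 against Sdc4+ cells (0% of all genes in both). At an unadjusted p under 0.05 there were 0 members against Sdc4- cells, with 3.82% of all genes. Against Sdc4+ cells there was 1, Adamts15 (3.33%, against 8.39% of all genes). Adamts15 read 1.78 in Cspg4+ cells and averaged 0.12 ± 0.49 in Sdc4+ cells (SD, n = 3), a difference of 1.66 (SE 0.65) with an adjusted p of 0.571 in limma. It read 0.67 ± 0.82 in Sdc4- cells (SD, n = 3), with CD1 Sdc4- cells at 1.31.

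Within the Cspg4-cre line the Cspg4+ array was close to the Cspg4- Sdc4- array: 0 of 30 members were at least 2-fold higher (against 3.46% of all genes) and 0 at least 2-fold lower (against 1.78% of all genes). The largest of the 30 differences was 0.86, for Mmp7, with both values at background. Against Cspg4- Sdc4+ cells, Adamts15 and Mmp1b were at least 2-fold higher in Cspg4+ cells (6.67%, against 6.2% of all genes) and Mmp8 was at least 2-fold lower (3.33%, against 4.67%). These counts depend on the scaling, and the Cspg4+ array had the highest median signal of the 7. When arrays were scaled on medians, 5 members were at least 2-fold lower than in Cspg4- Sdc4- cells and 12 lower than in Cspg4- Sdc4+ cells. Timp4 was highest in Cspg4+ cells, at -2.70, against -4.44 ± 1.14 in Sdc4- cells (SD, n = 3), and the difference of 1.74 (SE 0.79) was 1.14 without the streaked region.

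The 2 probes of Mmp27 differed on Cspg4+ cells. The Mmp27 probe at chr9:7573412-7573471 (mm9) read -1.95 in Cspg4+ cells, and in Sdc4- cells -6.16, -6.00 and -5.02, all at background, so it was at least 4.53-fold higher in Cspg4+ cells. It read -3.95 in CD1 Sdc4+ cells, the other array above background. The lower side of such a bound is the lowest signal well above background on each array, or the probe's own where that is higher. Among dim probes of the whole array, 11.2% were highest in Cspg4+ cells by at least 2-fold. The brighter Mmp27 probe, at chr9:7581328-7581387, read 0.09 in Cspg4+ cells and -0.04 in Cspg4- Sdc4- cells. Their first 30 bases are shown since they give different answers for Cspg4+ cells:
Mmp27 dimmer probe: agatataatgatagcattcaggacaggagg
Mmp27 brighter probe: catcataaaaggttaagcttgctcactttc

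Of the 16 genes that did not reach 3 arrays, 4 were above background on 1 or 2. Adamts16, whose substrates are little known, was above background in Cspg4+ cells alone, at -2.75, at least 2.22-fold higher than in Sdc4+ cells and at least 2.60-fold higher than in Sdc4- cells; its second probe was at background on all 7 arrays. Adamts18 was above background in Cspg4+ cells (-2.83) and Cspg4- Sdc4+ cells (-3.14). Adamts8, a proteoglycan-cutting enzyme, read -0.74 in B195AP+ cells by one probe, with the other 6 arrays at background between -6.25 and -3.43, and -2.67 in Cspg4+ and -3.56 in B195AP+ cells by the other. The 2 Adamts8 probes thus disagree on Cspg4+ cells and on the size in B195AP+ cells. Mmp24, a membrane-type enzyme, was above background in B195AP+ cells by 1 of its 2 probes, at -3.52.

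The other 12 genes were at background on all arrays. They were the procollagen proteinase Adamts3, the von Willebrand factor protease Adamts13, Adamts17, Adamts19, the versican-cutting Adamts20, the macrophage elastase Mmp12, the membrane-type enzymes Mmp15, Mmp16 and Mmp25, the enamel protease Mmp20, Mmp21 and Mmp28. Among probes at background, 8 of the 21 member probes with a value on every array read highest on the Cspg4+ array. Of the 20753 such probes of the array 31.8% did, next to 29.1% on the Myf5SOR+ array. By at least 2-fold, 2 of the 21 and 11.2% of all were highest on the Cspg4+ array. On the other arrays that share of all probes was 0.183% to 0.872%.

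Of 66 related genes chosen around these enzymes (activators, inhibitors, shedding enzymes, substrates and inducers), 50 were tested and 0 passed an adjusted p of 0.05 in limma between Sdc4+ and Sdc4- cells. The median difference was 0.11, against -0.03 over all genes. All 3 Sdc4+ arrays were above all 3 Sdc4- arrays for 7 of the 50 (against 7.2% of all genes) and below for 2 (against 9.26%). Of these, Serpine2 and Tnf differed by at least 2-fold and were higher in Sdc4+ cells. Serpine2, protease nexin-1, read 5.15, 4.35 and 5.04 in Sdc4+ cells and 2.67, 3.56 and 3.72 in Sdc4- cells. Tnf, the cytokine that induces several MMPs, read -1.91, 0.39 and -0.61 in Sdc4+ cells and -5.13, -3.95 and -2.49 in Sdc4- cells, where 1 of the 3 arrays was above background. The -5.13, on the B195AP+ array, is from a probe with 3 spots in the streaked region. In limma the adjusted p was 0.442 for Serpine2 and 0.453 for Tnf.

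Between CD1 and Cspg4- cells, 2 of the 50 were at least 2-fold higher in CD1 cells in both fractions (against 1.74% of all genes) and 1 at least 2-fold lower (against 1.78%), named here after their values were seen. Serpinb2, an inhibitor of urokinase, was 1.67 and 1.46 higher in CD1 Sdc4+ and Sdc4- cells, and Adam17, the enzyme that sheds Tnf, 1.46 and 1.30 higher. Mme, neprilysin, was lower by -1.26 and -1.78.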

How the data were processed

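RNA of 7 populations was hybridised to 1-colour Agilent mouse arrays on 1 slide with 60-base probes. The deposited scanner files hold background-subtracted and unsubtracted intensity per spot written by Agilent's Feature Extraction software (version 11.5.1.1, per the file headers), with probe positions on mm9. The deposited series table holds log2 values, and lumi is named in the submitters' processing notes. Its exact steps are not given in the sources used here.

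Processed intensity was set to log2 minus the array's 75th percentile, with outlier spots left out and spots of a probe averaged. Of a gene's several probes, the one with the highest mean was used, among those well above background on at least 3 of 7 arrays, which left 19760 genes. The 3 Sdc4+ arrays, 3 Sdc4- arrays and the Cspg4+ array were fitted as 3 group means with lmFit and eBayes in limma 3.58.1 (R 4.3.3), with p-values adjusted by Benjamini-Hochberg over all genes. The script was tested on simulated data. Nothing in the labels says that the arrays of a group are repeats of one population, so p-values measure the spread between arrays of different lines. CD1 against Cspg4-, and Cspg4+ against Cspg4-, are differences of single arrays, counted at 2-fold without a test.

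Every member was named, with all 7 values where it was above background on at least 3 arrays. Second probes were given where their background calls or the sign of the Sdc4 difference changed. Related genes were named where the Sdc4+ and Sdc4- arrays did not overlap and differed at least 2-fold, except 1 that is not reported here. Members and lists were chosen with earlier results of these data known. Alternatives were normexp correction (offset 50), quantile and median scaling, the deposited table, 2 other filters, the mean over probes, the line as a block, and left-out arrays or spots (rows up to 200 and columns up to 130 of the B195AP+ array).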

Additional observations from a re-analysis of the deposited data

How the results depend on the processing

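The Sdc4+ minus Sdc4- difference kept its sign under all 19 alternatives for Mmp8 (1.36 to 2.43) and Mmp19 (0.81 to 1.43), with adjusted p values in limma between 0.156 and 0.925. Adamts15 in Cspg4+ against Sdc4+ cells ranged between 0.87 and 1.88 over 18 alternatives. Mmp13 in CD1 against Cspg4- cells, averaged over both fractions, ranged between 2.77 and 3.60, and Mmp1b was 1.1 with normexp correction, against 2.56. Adamts4 was -2.08 with the mean over its probes, against -4.73. Without a filter on dim probes 1 member, Adamts16, passed in Cspg4+ against Sdc4- cells (log2 difference 2.82, adjusted p 0.0174 in limma), among 2679 of 34947 genes. With normexp correction the counts past 2-fold were 2 for CD1 higher (5 as reported), 0 for Sdc4+ higher in both lines (1 as reported), and 1 higher and 0 lower for Cspg4+ against Cspg4- Sdc4+ cells (2 and 1 as reported). With the deposited table, 3 were higher in CD1 cells and 1 was lower in Cspg4+ than in Cspg4- Sdc4- cells. With median scaling, which shifted the median of all genes by -0.78 against Sdc4- and -0.79 against Sdc4+ cells, Cspg4+ cells had 5 members lower than Cspg4- Sdc4- cells, and 0 higher and 12 lower than Cspg4- Sdc4+ cells. Median scaling also gave 6 members for CD1 higher (5 as reported). With the mean over probes 2 were lower in Cspg4+ than in Cspg4- Sdc4+ cells. The causes were not tested. Without the streaked region, Adamts12 had an unadjusted p of 0.0457 and an adjusted p of 0.492 in limma in Cspg4+ against Sdc4+ cells. With any 1 array left out, 0 members passed the adjusted threshold in any of the 3 contrasts. The replicate numbers in the labels pair no samples, but CD1 and Cspg4- cells each gave both fractions, and blocking on the line left 0 members past the adjusted threshold in all 3 contrasts. With the line as a fixed block the Sdc4+ minus Sdc4- difference was 1.6 for Mmp8 and 0.81 for Mmp19 (adjusted p 0.495 for both in limma), and as a random block 1.84 and 1.02 (adjusted p 0.161 and 0.156 in limma). With 1 array per population, differences within a line have no error.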
